A study of Mus musculus with 2 samples.

Results

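Cxcl9, Cxcl10, Ccl5, Ccl2, Ccl7 and Ccl12, the interferon and monocyte chemokines described here, are 6 of the 32285 genes counted in single cells from mouse bone marrow cultures. They were chosen by name. Their levels and the shares of cells carrying them were compared between a culture with dihydrotestosterone (DHT), an androgen, and a culture with its ethanol vehicle, in all filtered cells and in cells grouped by marker genes. The clustering behind these groups left out the 6 chemokines, other chemokines and interferon-stimulated genes.

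The DHT library came from cells cultured with 1 nM DHT throughout, and the Vehicle library from cells given an equal volume of ethanol. The labels describe a wild-type male C57BL/6J mouse aged 3 months as the donor, and both libraries carry the same batch label. M-CSF, which monocytes and macrophages need to survive, was present in both cultures, at 5 ng/mL for the 48 h in medium depleted of hormones. For the last 24 h both cultures had M-CSF at 100 ng/mL, the osteoclast inducer RANKL at 30 ng/mL and human TNF at 10 ng/mL, and the cells still adhering were collected. Each group is 1 library, so no difference has a replicate check, no test was made, and every interval below covers counting error only.

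Chemokines are small secreted proteins that guide the movement of white blood cells. Cxcl9 and Cxcl10 are ligands of Cxcr3, a receptor of activated T cells and natural killer cells. Cxcl9 is induced mainly by interferon gamma, whereas Cxcl10 also responds to type I interferon and to TNF. Ccl5 acts through Ccr1 and Ccr3, among others. Ccl2, Ccl7 and Ccl12 are ligands of Ccr2, the receptor with which monocytes leave the marrow, and monocytes can give rise to osteoclasts.

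Cxcl9 and Cxcl10 are neighbours on the minus strand of chromosome 5 (GRCm38). Cxcl9 lies at chr5:92321347-92328079 and Cxcl10 at chr5:92346638-92348889, with 18.6 kb between them. Ccl2, Ccl7 and Ccl12 lie on the plus strand of chromosome 11, at chr11:82035571-82037453, chr11:82045712-82047525 and chr11:82101845-82103400. The gap from Ccl2 to Ccl7 is 8.26 kb and that from Ccl7 to Ccl12 is 54.3 kb. Ccl5 is on the minus strand of the same chromosome, at chr11:83525778-83530518. Art3 overlaps Cxcl10 and Gm17268 overlaps Ccl2, both on the opposite strand, and the sources used here do not say whether counting used strand, so reads of such partners cannot be told apart. Art3 had 155 unique molecular identifiers (UMIs) in DHT cells and 163 in Vehicle cells, and Gm17268 had 1183 in DHT cells and 924 in Vehicle cells. Of all stretches of 31 bases in a chemokine's transcripts, at most 0.574% (Cxcl9) also occur in transcripts of another gene, and none do for Cxcl10, Ccl2, Ccl7 and Ccl12.

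RefSeq promoter sequences (GRCm38.p6) were at hand for 3 of the 6 genes, Cxcl9, Cxcl10 and Ccl12, and are shown because these genes were higher together in the DHT library. Each is the 250 bases before the gene's start, 5′ to 3′ on the gene's strand, at chr5:92328080-92328329 (minus), chr5:92348890-92349139 (minus) and chr11:82101595-82101844 (plus). Capitals mark matches on either strand to GAAA, any 2 bases and GAAA (the core of the interferon-stimulated response element, ISRE), TTCNNNGAA (the gamma-activated site, GAS), TGANTCA (AP-1) or the NF-kB consensus.
Cxcl9: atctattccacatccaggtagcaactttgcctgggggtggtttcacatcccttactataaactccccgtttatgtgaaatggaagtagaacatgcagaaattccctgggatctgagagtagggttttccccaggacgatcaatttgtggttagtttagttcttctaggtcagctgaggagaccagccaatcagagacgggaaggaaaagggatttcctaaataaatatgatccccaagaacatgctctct
Cxcl10: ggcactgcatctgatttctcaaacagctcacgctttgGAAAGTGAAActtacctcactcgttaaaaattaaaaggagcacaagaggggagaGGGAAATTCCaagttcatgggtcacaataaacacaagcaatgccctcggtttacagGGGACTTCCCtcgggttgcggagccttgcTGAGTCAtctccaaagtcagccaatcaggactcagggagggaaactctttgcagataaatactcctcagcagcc
Ccl12: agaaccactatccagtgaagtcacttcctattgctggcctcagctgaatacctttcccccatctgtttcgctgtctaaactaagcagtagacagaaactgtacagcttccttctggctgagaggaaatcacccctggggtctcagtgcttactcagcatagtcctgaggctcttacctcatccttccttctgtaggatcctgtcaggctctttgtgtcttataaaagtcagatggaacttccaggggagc
The Cxcl10 window held all of the matches. They were 1 ISRE core from base 213 to base 204 before the start, 2 NF-kB matches from 159 to 150 and from 103 to 94, and 1 AP-1 match from 74 to 68, and none overlapped another. Of 32851 promoter windows of this length, 2.98% held an ISRE core, 3.90% the NF-kB consensus, 6.75% AP-1 and 7.02% GAS. No match in the Cxcl9 and Ccl12 windows says only that these letters are not there.

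After filtering, 7708 DHT cells with a median of 30133 UMIs and 8590 Vehicle cells with a median of 50833.5 UMIs were kept. Osteoclast-like cells, named by markers such as Ctsk, Acp5 and Atp6v0d2, made up 24.7% of DHT cells and 44.4% of Vehicle cells, so the labelled cell type, osteoclast precursors, covers part of either library. Neutrophil-like cells made up 24.3% of DHT and 12.8% of Vehicle cells, macrophage-like cells 10.5% of DHT and 10.2% of Vehicle cells, and monocyte-like cells 11.4% of DHT and 9.23% of Vehicle cells. Conventional dendritic cell-like cells were 146 in the DHT library and 190 in the Vehicle library. Cluster 3 stayed unnamed because no marker of a cell type led it, and cluster 5 because its cells had few UMIs (a median of 1554). The libraries shared 33 cell barcodes, of which 18 were kept in both and 5 fell in the same group of cells.

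All 6 chemokines had a higher level in the DHT library when all filtered cells were summed. Levels are counts per 1000000 UMIs (CPM), and the 3′ tags counted are not divided by transcript length. Cxcl10 was 37.2 CPM in DHT cells and 5.08 CPM in Vehicle cells, a ratio of 7.32 (95% counting interval 6.99 to 7.67). Cxcl9 was rare, with 132 UMIs (0.445 CPM) in DHT cells and 8 UMIs (0.0186 CPM) in Vehicle cells, and its ratio of 24.0 has an interval of 11.8 to 56.7. Both Cxcr3 ligands thus lay above Vehicle beyond counting error, which treats each UMI as a separate draw and leaves out the spread between cells.

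Ccl5 was 48.9 CPM in DHT cells and 12.7 CPM in Vehicle cells, a ratio of 3.85 (3.74 to 3.98). Of the Ccr2 ligands, Ccl2 was the most abundant, at 112 CPM in DHT cells and 54.8 CPM in Vehicle cells, with the smallest ratio of the 6 genes, 2.05 (2.02 to 2.08). Ccl7 was 17.8 CPM in DHT cells and 4.10 CPM in Vehicle cells, a ratio of 4.34 (4.12 to 4.59). Each of these differences was also larger than counting error, which again leaves out the spread between cells. Ccl12 was 3.54 CPM in DHT cells and 0.678 CPM in Vehicle cells, a ratio of 5.23 (4.59 to 5.97). The order of levels was Ccl2, Ccl5, Cxcl10, Ccl7, Ccl12 and Cxcl9 in both libraries, and no neighbours in that order had overlapping intervals.

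To be called higher or lower, a gene needed a mean over both libraries of 2 CPM or more and a ratio of 1.5-fold or more in either direction. Of the 6 chemokines 5 passed that level, all except Cxcl9, and all 5 were called higher, against 8.15% of the 10959 genes tested. None was called lower, against 0.474% of genes. Ccl12 passed only through the DHT library, so it had to be higher there. The median log2 ratio was 2.25 over the 6 chemokines and -0.01 over all genes tested. When the clusters of the DHT library were weighted to the mix of the Vehicle library, Ccl2 had a ratio of 1.49 and was no longer called, and Ccl12, with a ratio of 3.87, no longer reached a mean of 2 CPM. Under that weighting the ratio was 5.97 for Cxcl10, 3.46 for Ccl5 and 3.57 for Ccl7. The weighting leaves the mix of cells within a cluster as it was. For Ccl5 that mix is described below for conventional dendritic cell-like cells, and its part in the ratio was not tested.

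**Figure D1:**
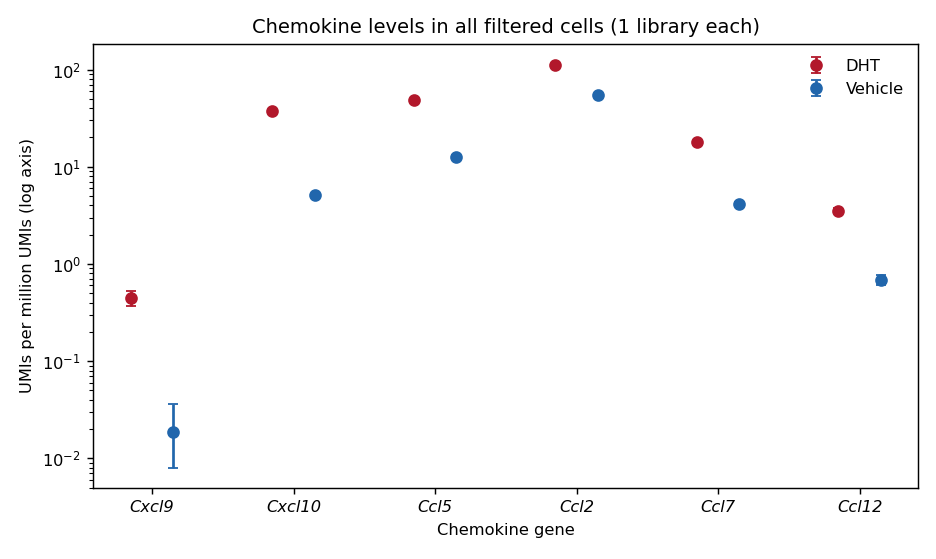
Level of each chemokine (CPM, log axis) in all filtered cells of the DHT library and the Vehicle library, with exact Poisson 95% intervals that cover counting error only. DHT is above Vehicle for all 6 genes, from 2.05-fold for Ccl2 to 24.0-fold for Cxcl9.

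Few cells carried most of each chemokine. Ranking cells from the highest down, 50% of the Cxcl10 UMIs were held by 29 DHT cells and by 14 Vehicle cells, and 50% of the Ccl5 UMIs by 16 DHT cells and by 9 Vehicle cells. For Ccl2 the same share took 106 DHT cells and 102 Vehicle cells, and for Ccl7 52 DHT cells and 24 Vehicle cells. The highest single cell held 740 Cxcl10 UMIs in the DHT library and 284 in the Vehicle library. Cells with at least 10 Cxcl10 UMIs numbered 171 in the DHT library and 30 in the Vehicle library, and cells with at least 10 Ccl2 UMIs 560 in the DHT library and 448 in the Vehicle library. Without the 5 cells with the most UMIs of each gene in each library, the log2 ratio was 3.23 for Cxcl10, 2.18 for Ccl5, 1.01 for Ccl2 and 2.27 for Ccl7, against 2.87, 1.95, 1.04 and 2.12 with all cells.

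**Figure D2:**
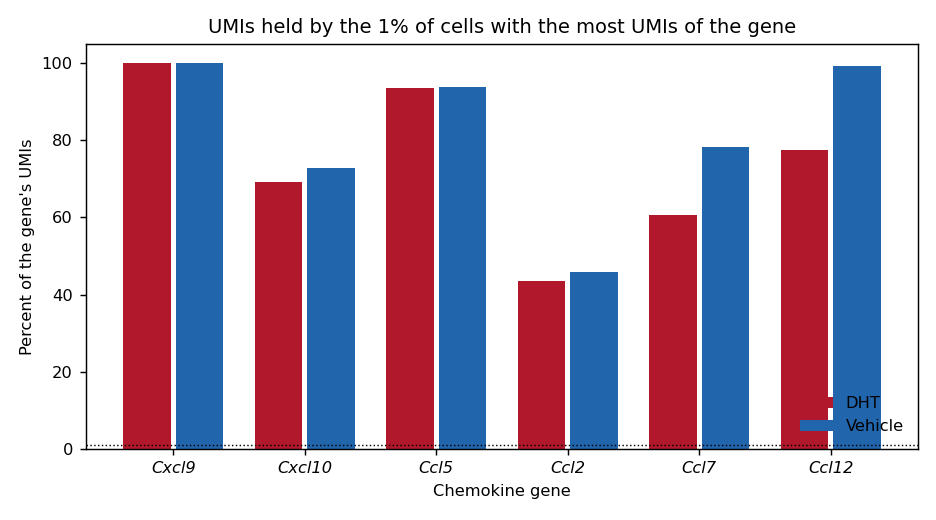
Percent of each chemokine's UMIs held by the 1% of cells with the most UMIs of that gene (78 DHT cells, 86 Vehicle cells). The dotted line marks 1%, an even spread; Ccl2 was the most evenly spread, with 43.5% in DHT cells and 45.8% in Vehicle cells, and these cells held all Cxcl9.

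To compare shares of cells at equal depth, each cell was thinned to 4719 UMIs, which left out 1060 DHT cells and 570 Vehicle cells with fewer. Thinned this way, 14.1% of DHT cells and 7.98% of Vehicle cells had a Ccl2 UMI. Cxcl10 was found in 5.52% of DHT and 1.05% of Vehicle cells, and Ccl7 in 4.38% of DHT and 1.06% of Vehicle cells. Ccl5 was found in 2.65% of DHT and 1.35% of Vehicle cells, Ccl12 in 1.02% of DHT and 0.1995% of Vehicle cells, and Cxcl9 in 0.1504% of DHT and 0.0125% of Vehicle cells. Without thinning, Ccl2 was found in 31.3% of DHT and 21.8% of Vehicle cells, and Cxcl10 in 14.6% of DHT and 6.43% of Vehicle cells. B cell-like cells, which should lack Ccl2, were taken as a guide to free RNA. After thinning, 6.21% of 290 DHT cells (median 6550 UMIs before thinning) and 2.13% of 47 Vehicle cells (median 5645 UMIs) had a Ccl2 UMI, with overlapping binomial intervals (3.72% to 9.63% with DHT, 0.0539% to 11.3% with Vehicle). The same cells had Cxcl10 in 1.03% of DHT cells and in 0 of 47 Vehicle cells, which allows a share of up to 6.38% (3 of 47 cells).

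The chemokines had different sources among the cells. In the DHT library, monocyte-like cells held 55.6% of Ccl2 UMIs and macrophage-like cells 32.8%, and in the Vehicle library monocyte-like cells held 38.3% and macrophage-like cells 46.1%. Conventional dendritic cell-like cells held 76.6% of Ccl5 UMIs in the DHT library and 81.3% in the Vehicle library, though they were 1.89% of DHT cells and 2.21% of Vehicle cells. Cxcl10 was spread more widely. Its UMIs came in the DHT library from monocyte-like cells (37.5%), macrophage-like cells (23.3%), osteoclast-like cells (20.1%) and neutrophil-like cells (14.5%). In the Vehicle library the largest part, 47.3%, came from osteoclast-like cells, which were 44.4% of Vehicle cells. Their Cxcl10 level, 4.20 CPM, was below the 5.08 CPM of all Vehicle cells.

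**Figure D3:**
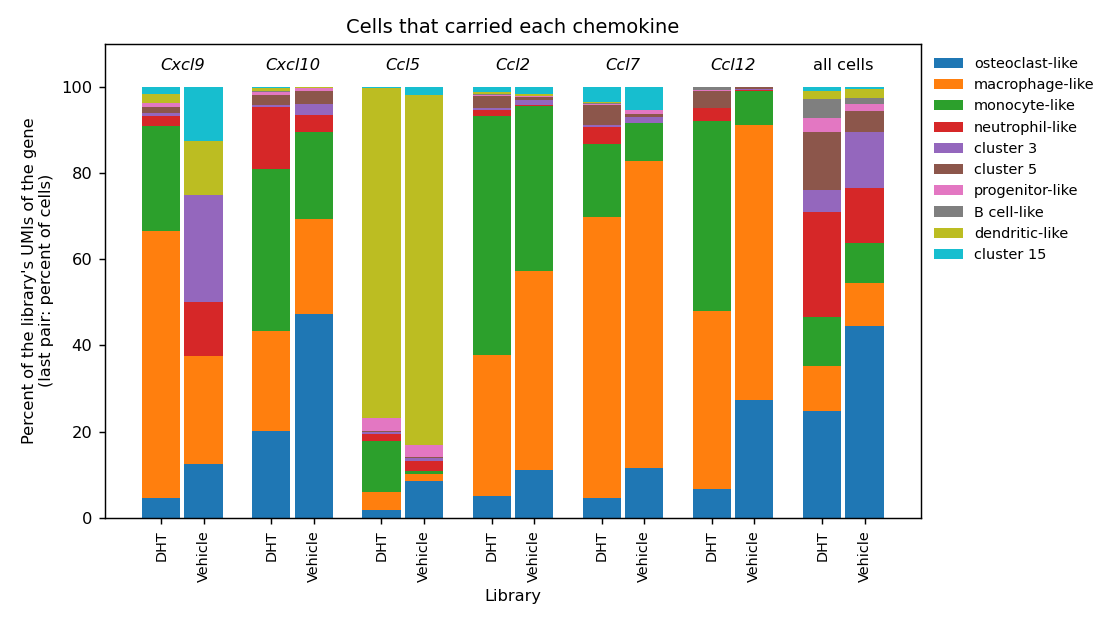
Percent of each chemokine's UMIs that came from each group of cells, DHT left of Vehicle, with the percent of cells in the last pair of bars; cluster 15 had too few cells to be compared, and progenitor-like and dendritic-like are short for the granulocyte-monocyte progenitor-like and conventional dendritic cell-like groups. Dendritic-like cells carried most Ccl5 in both libraries, and macrophage-like and monocyte-like cells most Ccl2, Ccl7 and Ccl12; the Vehicle bar of Cxcl9 holds only 8 UMIs.

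Macrophage-like cells, marked by C1qa and Ms4a7, had the highest Cxcl9, Cxcl10, Ccl2, Ccl7 and Ccl12 levels of the DHT library. Cxcl10 was 85.7 CPM in DHT macrophage-like cells and 11.4 CPM in Vehicle ones, a ratio of 7.53 (6.83 to 8.31). Cxcl9 had 82 UMIs in the DHT cells and 2 in the Vehicle cells, and Ccl5 was 20.3 CPM in the DHT cells and 2.32 CPM in the Vehicle cells. Few macrophage-like cells held most of the Ccl5, as 9 DHT cells had 515 of 610 UMIs and 1 Vehicle cell had 65 of 98. The log2 ratio of Cxcl9 was 5.85, and without the 5 highest cells of each library, which left the Vehicle cells at the floor of 3 counts, it was at least 2.61.

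Ccl7 was 114 CPM in DHT macrophage-like cells and 29.8 CPM in Vehicle ones, a ratio of 3.85 (3.61 to 4.11), and Ccl12 was 14.5 CPM in the DHT cells and 4.40 CPM in the Vehicle cells. Ccl2 was 363 CPM in the DHT cells and 257 CPM in the Vehicle cells, and its ratio of 1.41 stayed under the 1.5-fold limit. The Ccl2 ratio depended on how cells were grouped. In cluster 4, the larger of the macrophage-like clusters, Ccl2 was 342 CPM in 739 DHT cells and 199 CPM in 712 Vehicle cells (1.72-fold), and in cluster 14 it was 494 CPM in 72 DHT cells and 439 CPM in 164 Vehicle cells (1.13-fold). When interferon genes and chemokines entered the clustering, the log2 ratio of Ccl2 in macrophage-like cells was 1.11, past the limit. Of the 5 chemokines that passed 2 CPM here, 4 were called higher, against 3.8% of all genes tested in these cells. After thinning, Ccl2 was found in 46.7% of DHT and 31.2% of Vehicle macrophage-like cells, Ccl7 in 22.3% of DHT and 7.06% of Vehicle ones, and Cxcl10 in 12.1% of DHT and 2.43% of Vehicle ones. Neutrophil markers differed as well, with a summed level of 1486 CPM in DHT and 638 CPM in Vehicle macrophage-like cells and none of 10 markers at 0 in either, and their part in the result was not tested.

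Monocyte-like cells, marked by Ly6c2, Ccr2 and F13a1, came next for Ccl2, with 292 CPM in DHT cells and 182 CPM in Vehicle cells, a ratio of 1.61 (1.57 to 1.65). With the 10% of cells that scored highest as doublets left out, the log2 ratio was 0.56 and the call was lost. Cxcl10 was 65.2 CPM in DHT monocyte-like cells and 8.93 CPM in Vehicle ones, a ratio of 7.30. Ccl7 was 14.2 CPM in the DHT cells and 3.10 CPM in the Vehicle cells, and Ccl12 was 7.30 CPM in the DHT cells and 0.462 CPM in the Vehicle cells. All 5 chemokines that passed 2 CPM were called higher in monocyte-like cells, against 2.49% of all genes, but Ccl5 and Ccl12 passed only through the DHT library. Marker levels of other cell types differed as well. The 10 macrophage markers summed to 423 CPM in DHT and 290 CPM in Vehicle monocyte-like cells, with 8 of 10 at 2 CPM or more and none at 0 in either library. The conventional dendritic cell markers summed to 211 CPM in the DHT and 468 CPM in the Vehicle cells, and the part of either list in the result was not tested.

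The Ccl5 ratio of monocyte-like cells rested on 10 cells. Ccl5 was 27.3 CPM in the DHT cells (1734 UMIs) and 0.543 CPM in the Vehicle cells (27 UMIs), a ratio of 50.4. Of the DHT UMIs 1655 were in 10 cells, and no Vehicle cell held more than 2. Without the 5 highest cells of each library the log2 ratio was 3.08, in place of 5.65. The 10 cells, all of cluster 7, held 13 to 654 Ccl5 UMIs each and had a median of 8.71% of UMIs in interferon-stimulated genes other than chemokines, against 1.27% in the other DHT monocyte-like cells. Their macrophage markers summed to 5079 CPM and their dendritic cell markers to 1261 CPM, against 403 CPM and 207 CPM in the other DHT monocyte-like cells, while Ccr7, a receptor of mature dendritic cells, was at 0. Ifnb1, the gene of interferon beta, had 9 UMIs in the DHT library, all in 2 of these 10 cells, and 1 UMI in the Vehicle library. Those 2 cells had 6 and 3 Ifnb1 UMIs, and 11.9% and 14.3% of their UMIs were in interferon-stimulated genes. The 10 cells were singled out after their Ccl5 values were seen.

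Neutrophil-like cells, marked by S100a8, S100a9 and Retnlg, had Cxcl10 at 47.4 CPM in the DHT library and 5.19 CPM in the Vehicle library, a ratio of 9.13 (7.32 to 11.5). Of their clusters, cluster 6 had the highest level, 148 CPM in DHT cells and 11.8 CPM in Vehicle cells. Few neutrophil-like cells held most of the Cxcl10. In the DHT library 31 cells with at least 10 UMIs held 1232 of 1598, and the other 1844 cells had 11.0 CPM, while no Vehicle cell reached 10 UMIs. Macrophage markers summed to 329 CPM in these 31 cells and 59.99 CPM in the other DHT cells, and their part in the result was not tested. After thinning, 5.75% of DHT and 1.82% of Vehicle neutrophil-like cells had a Cxcl10 UMI. Ccl2 was 14.3 CPM in the DHT cells and 2.81 CPM in the Vehicle cells, but 53.9% of the DHT UMIs were in 1 cell. Its thinned shares, 3.95% of DHT and 1.82% of Vehicle cells, lay within the intervals of the B cell-like shares. Whether free RNA accounts for them was not tested. Ccl7 had 209 UMIs in the DHT cells, 69.4% of them in 1 cell, and 2 UMIs in the Vehicle cells. Ccl5 was 7.09 CPM in the DHT cells and 8.25 CPM in the Vehicle cells, a ratio of 0.859 (0.692 to 1.07) that did not reach the limit. Of 4 chemokines at a mean of 2 CPM or more, 3 were called higher in neutrophil-like cells, against 2.57% of all genes. Of these, Ccl7 passed only through the DHT library, so it had to be higher, and Ccl2 is the one with thinned shares within the B cell-like intervals.

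**Figure D4:**
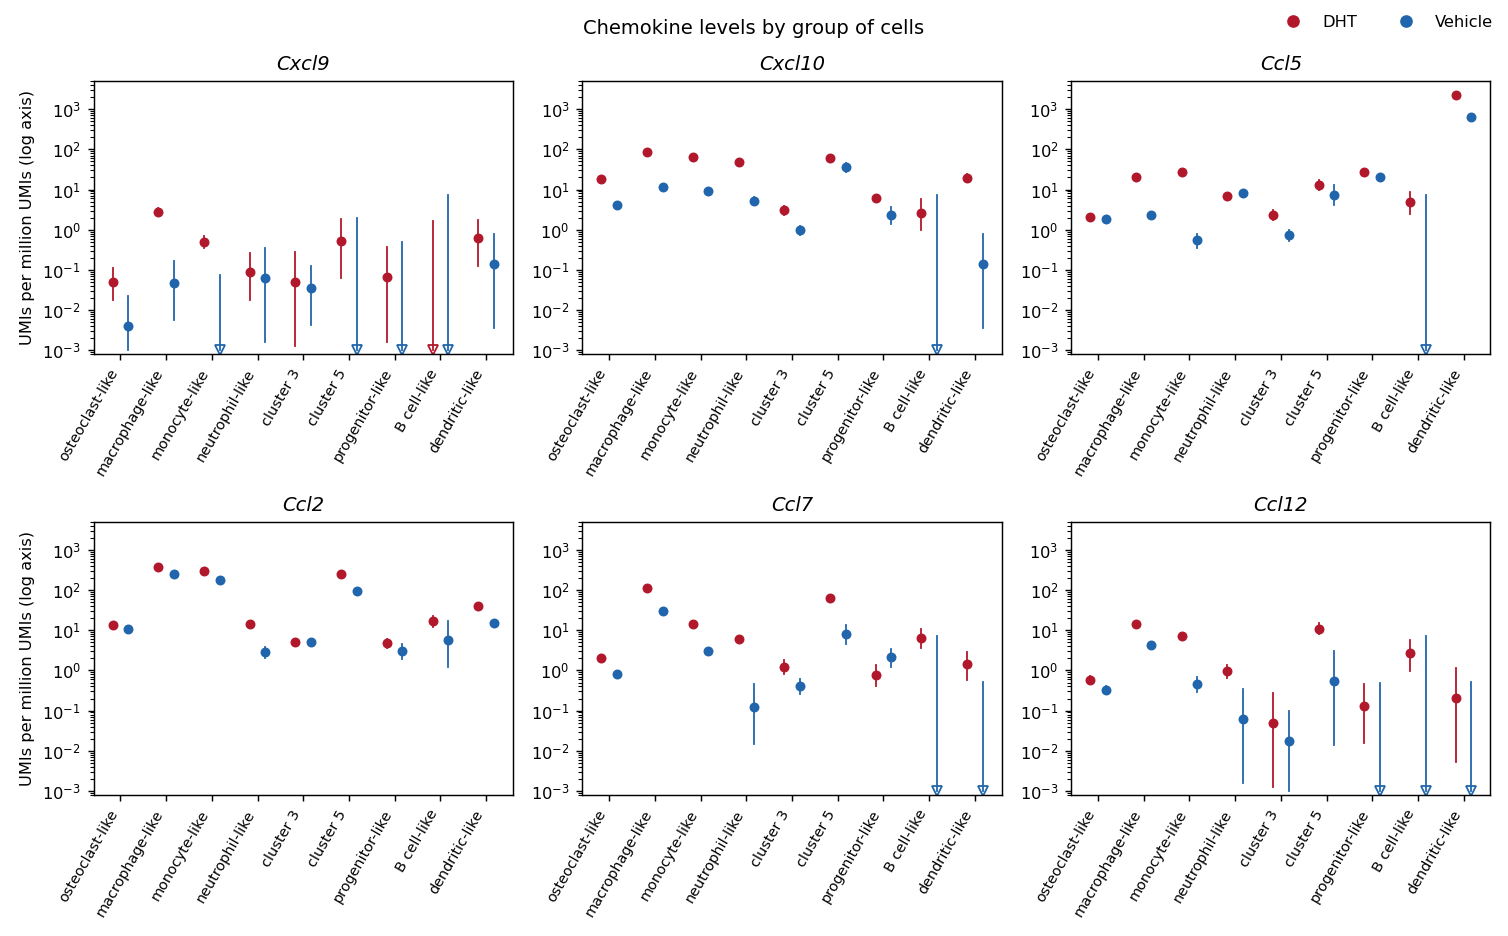
Level of each chemokine (CPM, log axis) in each of 9 groups of cells, DHT left of Vehicle, with exact Poisson 95% intervals for counting error; open triangles mark 0 UMIs, and lower bounds under 0.001 end there. Ccl5 peaks in dendritic-like cells, at 2263 CPM with DHT and 631 CPM with Vehicle, and the other chemokines of the DHT library in macrophage-like cells.

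As a group, osteoclast-like cells had lower levels of all 6 chemokines than all filtered cells of the same library. Cxcl10 was 18.4 CPM in DHT cells and 4.20 CPM in Vehicle cells, a ratio of 4.40 (4.08 to 4.74), and Ccl2 was 13.8 CPM in DHT cells and 10.7 CPM in Vehicle cells, a ratio of 1.29. Only these 2 chemokines reached a mean of 2 CPM, and 1 of them was called higher, against 1.56% of all genes. Of the osteoclast-like clusters, cluster 0 had Cxcl10 at 39.7 CPM in DHT and 6.96 CPM in Vehicle cells. It held 1899 of the 2216 DHT UMIs. Cxcl10 was 1.42 CPM in DHT and 0.318 CPM in Vehicle cells of cluster 1. In cluster 2 it was 7.65 CPM in DHT and 3.62 CPM in Vehicle cells. A small number of osteoclast-like cells held the Cxcl10: 34 DHT cells with at least 10 UMIs held 1763 of 2216, and 16 such Vehicle cells held 649 of 1036. The osteoclast markers of these high cells summed to 246 CPM in the DHT library and 357 CPM in the Vehicle library, against 2727 CPM in the other DHT and 2133 CPM in the other Vehicle osteoclast-like cells. With finer clusters (resolution 1.0) the log2 ratio of Cxcl10 in osteoclast-like cells was 0.52, and with interferon genes and chemokines in the clustering it was 0.47, in place of 2.14, and both end the call. The log2 ratio of Ccl2 was 1.29 with these genes in the clustering, past the limit, in place of 0.37. It stayed under the limit in 5 of 8 alternatives. The thinned shares of Ccl2, 4.98% of DHT and 2.96% of Vehicle cells, lay near those of B cell-like cells, although 22 DHT cells and 48 Vehicle cells held at least 10 Ccl2 UMIs.

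Conventional dendritic cell-like cells, marked by Cd74 and H2-Aa, had the highest Ccl5, at 2263 CPM in DHT cells and 631 CPM in Vehicle cells, a ratio of 3.59 (3.46 to 3.71). Nearly all of it was in cells with a Ccr7 UMI. Of these cells, the 64 in the DHT library had 7443 CPM (7305 to 7584) and the 45 in the Vehicle library 5317 CPM (5160 to 5477), and a Ccl5 UMI was found in 84.4% of the DHT and 82.2% of the Vehicle ones. Cells without a Ccr7 UMI had 39.6 CPM in the DHT library (82 cells) and 17.8 CPM in the Vehicle library (145 cells). The summed Ccl5 levels of the cells with a Ccr7 UMI differed by less than 1.5-fold. Their median count per cell was 109 Ccl5 UMIs in DHT and 34 in Vehicle cells. The median depth of these cells was 20232 UMIs in the DHT and 16627 UMIs in the Vehicle library. Cells with a Ccr7 UMI were also a larger part of the group in the DHT library. How much of the group's ratio comes from this mix was not tested. All 3 chemokines that passed 2 CPM in the group were called higher, against 12.2% of all genes. However, 71.1% of the 97 Cxcl10 UMIs in DHT cells were in 1 cell, with 1 UMI in Vehicle cells, so it passed only through the DHT library, and 75.6% of the DHT Ccl2 UMIs were in 1 cell. Without the 5 highest cells of each library 1 chemokine was called, Ccl5, with a log2 ratio of 2.17.

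The remaining groups had less chemokine RNA or little depth. The leading genes of cluster 5 included macrophage genes such as Ms4a7 and C1qa, and also the plasma cell genes Jchain, the first of them, and Mzb1. Cluster 5 had Ccl2 at 254 CPM in DHT cells and 95.5 CPM in Vehicle cells, and Ccl7 at 64.2 CPM in DHT cells and 8.05 CPM in Vehicle cells. Cxcl10 was 61.6 CPM in DHT cells and 35.9 CPM in Vehicle cells, with a log2 ratio of 0.78 that became 3.93 without the 5 highest cells of each library. All 5 chemokines that passed were called higher there, against 11.2% of all genes, with Ccl12 passing only through the DHT library and an interval for Ccl5 (0.967 to 3.47) that includes no difference. In cluster 3, Cxcl10 was 3.06 CPM in DHT cells and 0.972 CPM in Vehicle cells, and it was the 1 call among 2 chemokines that passed, against 2.08% of all genes. It passed only through the DHT library, and its mean lay so close to 2 CPM that the call was lost under 5 alternatives, although the log2 ratio, 1.65, stayed at 1.32 or more. Granulocyte-monocyte progenitor-like cells had Ccl5 at 27.0 CPM in DHT cells and 19.96 CPM in Vehicle cells (1.35-fold), and Cxcl10 and Ccl2 were the 2 calls among 3 that passed, against 4.82% of all genes. The interval of that Ccl2 ratio, 0.954 to 2.59, includes no difference. B cell-like cells had 38 Ccl2 UMIs in the DHT library and 3 in the Vehicle library, the 1 call among 3 that passed, against 16.4% of all genes, and the interval of its ratio, 0.915 to 14.6, includes no difference. No chemokine was called lower in any of the 9 groups. The share of all genes called lower was 2.55% in macrophage-like, 0.736% in monocyte-like, 2.85% in neutrophil-like, 0.267% in osteoclast-like and 6.66% in conventional dendritic cell-like cells. It was 0.756% in cluster 3, 7.65% in cluster 5, 2.36% in granulocyte-monocyte progenitor-like cells and 11.7% in B cell-like cells. Cluster 15, with 70 DHT and 37 Vehicle cells and Sparc and Col1a1 among its leading genes, was too small to be compared as a group, and its ratios ran the other way for 2 chemokines. There Ccl5 was 16.6 CPM in DHT cells and 78.9 CPM in Vehicle cells, a ratio of 0.211, and Ccl2 was 138 CPM in DHT cells and 322 CPM in Vehicle cells, a ratio of 0.428.

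The share of a cell's UMIs in interferon-stimulated genes, counted over 159 genes without chemokines, was higher in the DHT library. Its median was 1.09% in all DHT cells and 0.628% in all Vehicle cells, and 1.48% in DHT and 0.680% in Vehicle macrophage-like cells. Macrophage-like cells of both libraries were split into 4 bins of this share at common limits. In the lowest bin, Cxcl10 was 6.13 CPM in 30 DHT cells and 6.32 CPM in 392 Vehicle cells, with overlapping intervals. In the second it was 8.92 CPM in 86 DHT cells and 6.02 CPM in 335 Vehicle cells, but without the highest cell of each library it was 3.65 CPM in the DHT and 4.89 CPM in the Vehicle cells. In the third it was 19.9 CPM in 283 DHT cells and 8.85 CPM in 139 Vehicle cells, and without the highest cell of each library 12.9 CPM in the DHT and 7.29 CPM in the Vehicle cells. In the highest bin, above 1.46%, it was 182 CPM in 412 DHT cells, which also held all 82 Cxcl9 UMIs of the DHT macrophage-like cells. Only 10 Vehicle cells fell in the highest bin, and 205 of their 207 Cxcl10 UMIs were in 1 cell.

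Ccl7 was higher in the DHT library in the lower bins too. It was 128 CPM in DHT and 25.3 CPM in Vehicle macrophage-like cells of the lowest bin, where 1 of the 30 DHT cells held 102 of 146 UMIs. Without the highest cell of each library these levels were 41.3 CPM in the DHT and 22.1 CPM in the Vehicle cells. Ccl7 was 47.4 CPM in DHT and 23.7 CPM in Vehicle cells of the second. Ccl2 had no single direction, with 197 CPM in DHT and 289 CPM in Vehicle cells of the lowest bin, and 287 CPM in DHT and 204 CPM in Vehicle cells of the second. In osteoclast-like cells of the highest bin, Cxcl10 was 31.6 CPM in 1109 DHT cells and 30.3 CPM in 320 Vehicle cells, with median interferon shares of 1.09% in the DHT and 0.886% in the Vehicle cells. Of the 582 Vehicle UMIs 284 were in 1 cell, and without the highest cell of each library Cxcl10 was 25.1 CPM in the DHT and 15.6 CPM in the Vehicle cells. In monocyte-like cells of the highest bin, Cxcl10 was 172 CPM in 371 DHT cells and 120 CPM in 47 Vehicle cells, and Ccl2 was 517 CPM in the DHT and 210 CPM in the Vehicle cells. Of the 234 Vehicle Cxcl10 UMIs 130 were in 1 cell, and without the highest cell of each library Cxcl10 was 139 CPM in the DHT and 55.1 CPM in the Vehicle cells. Median interferon shares in this bin were 1.88% in the DHT and 1.58% in the Vehicle cells. In every lower bin of monocyte-like cells, Ccl2 was lower in the DHT library. It was 108 CPM in DHT and 118 CPM in Vehicle cells of the lowest bin. In the second it was 185 CPM in DHT and 210 CPM in Vehicle cells, and in the third 216 CPM in DHT and 249 CPM in Vehicle cells. The intervals of the lowest bin overlapped (101.9 to 113.7 with DHT, 113.5 to 123.1 with Vehicle). Without the highest cell of each library, Ccl2 was 88.3 CPM in DHT and 108 CPM in Vehicle cells of the lowest bin. In the second it was then 116 CPM in DHT and 194 CPM in Vehicle cells. In the third the levels were nearly equal, at 197.0 CPM in DHT and 199.7 CPM in Vehicle cells.

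**Figure D5:**
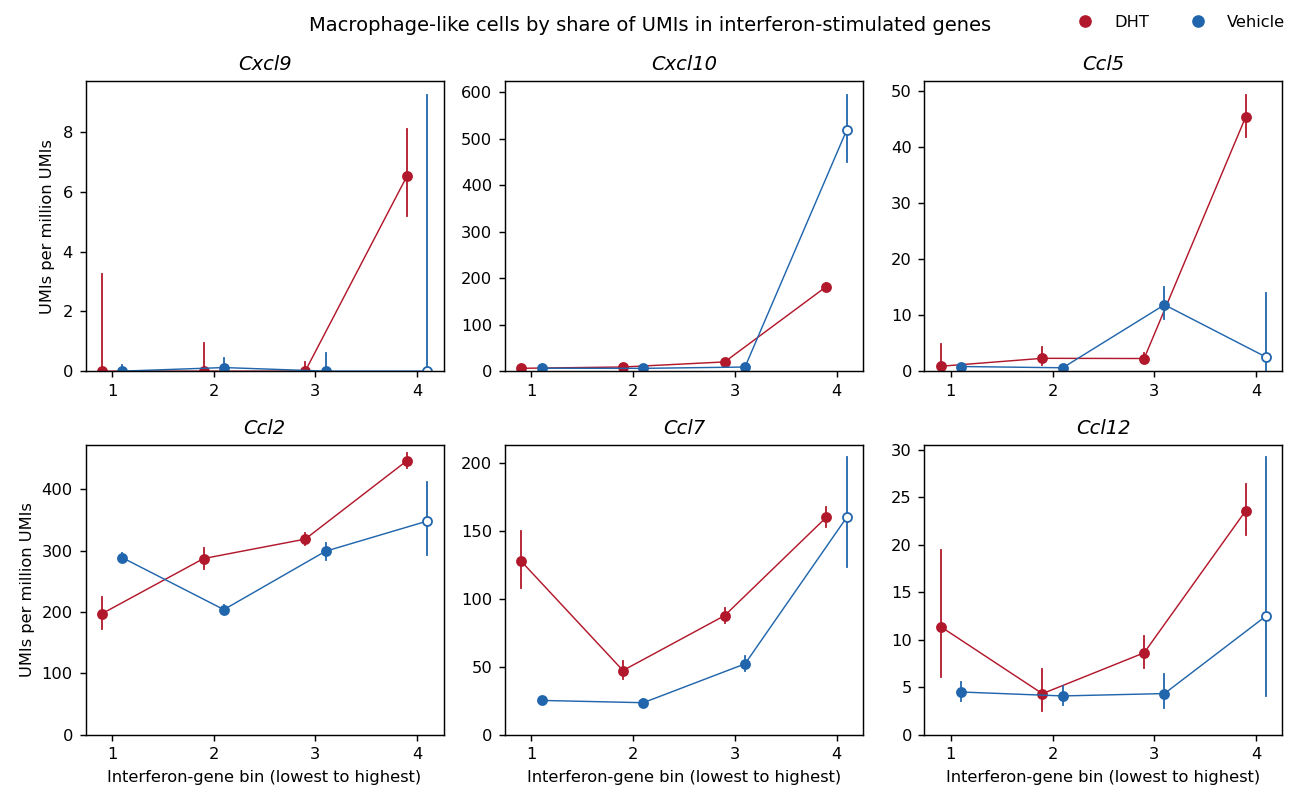
Chemokine level (CPM) in macrophage-like cells split by the share of their UMIs in interferon-stimulated genes, DHT left of Vehicle in each bin, with exact Poisson 95% intervals; open points are bins with under 20 cells. All 6 chemokines of the DHT cells peak in the highest bin, where Cxcl10 is 182 CPM and Ccl2 446 CPM; the DHT point of Ccl7 in the lowest bin rests mostly on 1 cell, with 102 of 146 UMIs, and the Vehicle point of Cxcl10 in the highest on 1 cell with 205 of 207.

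Ccr2 ligands were often found in the same cells. Each cell was thinned to 20000 UMIs, which kept 4469 DHT and 6854 Vehicle cells, of all groups together. Of 355 DHT cells with Ccl7, 76.1% also had Ccl2, against 22.3% of DHT cells without Ccl7. In the Vehicle library these were 84.2% of 184 cells with Ccl7 and 14.0% of cells without it. Within these 2 groups of DHT cells, Ccl2 was also common in cells without Ccl7. In DHT macrophage-like cells Ccl2 was found in 94.5% of cells with Ccl7 and 50.6% of cells without it. In DHT monocyte-like cells these shares were 88.7% and 48.1%. Read the other way, Ccl7 was found in 22.8% of all DHT cells with Ccl2 and 2.59% of those without it. In DHT macrophage-like cells these shares were 46.4% and 4.90%, and in DHT monocyte-like cells 14.5% and 1.96%. Of 134 DHT cells with Ccl12 in all groups, 85.1% had Ccl2 and 52.2% had Ccl7, against 24.7% and 6.57% of DHT cells without Ccl12. Ccl5 was found in 6.94% of 461 DHT cells with Cxcl10 and in 5.46% of DHT cells without it, and in 5.93% of 253 Vehicle cells with Cxcl10 and 2.20% of Vehicle cells without it. Over the 18 sums of the 9 groups in both libraries, which share library and depth, the Pearson correlation of log2(CPM + 1) was 0.94 between Ccl7 and Ccl12 and 0.83 between Ccl2 and Ccl7, and Ccl5 reached at most 0.38 with another of the 6. The genes most like each chemokine over these sums were Siglec1 for Cxcl9 (0.81), Fcgr1 for Cxcl10 (0.81), Klrk1 for Ccl5 (0.90), Cmklr1 for Ccl2 (0.93), Arg1 for Ccl7 (0.91) and Fcgr1 for Ccl12 (0.86).

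Of the receptors, Ccr2 was 101 CPM in DHT cells and 48.3 CPM in Vehicle cells and was called higher. In monocyte-like cells, its main site, Ccr2 was 387 CPM in the DHT and 281 CPM in the Vehicle cells, under the limit. Ccr1 was 92.9 CPM in DHT cells and 92.7 CPM in Vehicle cells, and Cxcr3 had 59 UMIs in DHT cells and 115 in Vehicle cells, under the level tested.

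Of 12 other chemokine ligands measured in all filtered cells, 7 were called higher and 0 lower, against 8.15% and 0.474% of all genes (median log2 ratio 0.65). Ccl6 was 38.0 CPM in DHT cells and 14.5 CPM in Vehicle cells, Ccl4, which attracts monocytes and T cells, was 11.7 CPM in DHT cells and 5.30 CPM in Vehicle cells, and Cxcl2, a neutrophil attractant, was 84.9 CPM in DHT cells and 47.0 CPM in Vehicle cells. Ccl9 was 841 CPM in DHT cells and 1023 CPM in Vehicle cells and was not called. Ppbp, at 2.55 CPM in DHT cells and 1.58 CPM in Vehicle cells, passed the 2 CPM level only through the DHT library, so it had to be higher there. Of 38 genes of interferon and TNF signalling, 10 were called higher, against 8.15% of all genes, and 0 lower, against 0.474% (median log2 ratio 0.13). Irf7, a transcription factor of the type I interferon response, was 52.6 CPM in DHT cells and 4.89 CPM in Vehicle cells. Stat2, which carries the type I interferon signal to the nucleus, was 22.1 CPM in DHT cells and 7.998 CPM in Vehicle cells.

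Of 13 companions that interferon gamma induces, 9 were called higher and 0 lower, beside the same 8.15% and 0.474% of all genes (median log2 ratio 1.05). Gbp2, a guanylate-binding protein gene, was 4.52 CPM in DHT cells and 1.07 CPM in Vehicle cells, and Irgm2, a gene of the immunity-related GTPases, was 8.83 CPM in DHT cells and 2.32 CPM in Vehicle cells. Gbp2 passed the 2 CPM level only through the DHT library, so it had to be higher there. Of 5 cytokine ligands measured, 3 were called higher (8.15% of all genes). Il1b was 39.6 CPM in DHT cells and 12.2 CPM in Vehicle cells, Csf1, the gene of M-CSF, was 4.90 CPM in DHT cells and 1.60 CPM in Vehicle cells, and Il18 was 8.25 CPM in DHT cells and 4.54 CPM in Vehicle cells. Csf1 likewise passed only through the DHT library, so it had to be higher. Tnf was 30.4 CPM in DHT cells and 22.01 CPM in Vehicle cells and was not called. Neutrophil markers summed to 37399 CPM in all DHT cells and 12275 CPM in all Vehicle cells, and their part in these all-cell values was not tested.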

How the data were processed

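Adherent cells grown from mouse bone marrow were sequenced as 2 droplet-based 3′ libraries, 1 with DHT and 1 with Vehicle. For each, the authors deposited UMI counts, not normalized, as 1 matrix of genes by barcodes. The counts came from Cell Ranger 7.0.1, per the file headers and per the processing notes of the submitters. Those notes list GRCh38 and mm10 as builds and do not say what each was used for. How cells were called, and whether introns and strand were used in counting, is not given in the sources used here. A count of intronic reads or a strandless count could add reads of overlapping genes.

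The DHT library held 319430510 UMIs in 10798 barcodes and the Vehicle library 453802415 in 10630, so levels under a few UMIs are imprecise. Kept barcodes had 300 or more genes, 800 or more UMIs and no more than 10% mitochondrial UMIs, and Scrublet (expected rate 0.08) then removed 203 DHT (2.57%) and 156 Vehicle (1.78%) barcodes as doublets. Clustering used scanpy 1.11.5 and leidenalg 0.10.2, with counts scaled to 10000 per cell, 2000 variable genes, 30 principal components, 15 neighbours and resolution 0.6. A cluster was named from marker lists where at least 3 markers and at least 50% of a list were over 2-fold, provided that this list also had more members than any other among the 10 top genes of the cluster. That scoring rule was chosen after clusters were seen. Clusters with a median under 2000 UMIs stayed unnamed, and groups with at least 100 cells in both libraries were compared.

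Counts were summed per library and group and divided by their total. Intervals at 95% are exact Poisson (levels), Clopper-Pearson (shares) and conditional binomial (ratios). In those of levels and ratios each UMI counts as a separate draw, so the spread between cells is left out. With 0 UMIs in a library, or 0 cells with a UMI, a floor of 3 counts was used in place of an interval. Ratios and their intervals, in all filtered cells and macrophage-like cells, and the thinning were tested on simulated counts. Those counts did not include the spread between cells, and the other steps were not tested this way. The members and gene lists were chosen with earlier results of these data known. Named genes are the 6 chemokines, for each the genes most correlated with it, and of each list the 3 members with the largest and the 2 with the smallest log2 ratio; others were named after their values were seen. Alternatives were 2 other scalings, CPM averaged over cells, other filters and doublet rules, other clusterings, the Vehicle mix of clusters and, added after seeing the data, leaving out the 5 highest cells, or the highest cell of a bin. Gene positions are from GENCODE M21. Some genes are not reported here.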

Additional observations from a re-analysis of the deposited data

Results flagged for a closer look

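The barcodes removed by the cell filter, 2887 with DHT and 1884 with Vehicle, lie outside the comparisons above and also held more chemokine UMIs in the DHT library. Cxcl10 was 18.97 CPM in the removed DHT barcodes and 0.763 CPM in the removed Vehicle barcodes. Ccl5 was 42.0 CPM in the removed DHT barcodes and 4.03 CPM in the removed Vehicle barcodes, and Ccl2 was 66.3 CPM with DHT and 18.4 CPM with Vehicle. Ccl7 was 19.8 CPM in the removed DHT barcodes and 2.18 CPM in the removed Vehicle barcodes, and Ccl12 was 1.72 CPM with DHT (17 UMIs) and 0.109 CPM with Vehicle (1 UMI). Cxcl9 had 0 UMIs in the removed barcodes of both libraries.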

How the results depend on the processing

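No paired analysis was possible because each group is 1 library. In all filtered cells, 5 chemokines were called higher, and under 10 of 11 alternatives this count stayed within 1.5 times; with the Vehicle mix of clusters it was 3. No chemokine was called lower in all filtered cells under any of the 11. In osteoclast-like cells the count of 1 became 2 with CPM averaged over cells and at resolution 0.3. In cluster 3 the count of 1 became 0 with TMM scaling, median of ratios scaling, CPM averaged over cells, removal of the 10% of cells that scored highest as doublets, and removal of the 5 highest cells. In granulocyte-monocyte progenitor-like cells the count of 2 became 1 with TMM scaling, median of ratios scaling and removal of the 5 highest cells, and in conventional dendritic cell-like cells the count of 3 became 1 with that removal. In cluster 3 the log2 ratio of Cxcl10 stayed between 1.32 and 1.61, against 1.65, and only the mean went under 2 CPM. In progenitor-like cells the log2 ratio of Ccl2 (0.63) was 0.56 with TMM and 0.54 with median of ratios, both under the limit, but 2.98 without the 5 highest cells. For osteoclast-like cells the cause was not tested. Over all genes, 893 were called higher, against 288 with a mean of at least 20 CPM and 4556 with at least 1 UMI in both libraries, filters that by construction change the genes tested. Neither other scaling moved log2 ratios by more than 0.09. Of called values in all filtered cells that moved by over 1.5 times, the log2 ratio of Ccl12 (2.39) was 3.35 with CPM averaged over cells; without the 5 highest cells it was 2.99, and Ccl12 no longer reached 2 CPM. Depth limits Cxcl9 (8 Vehicle UMIs) and every level in B cell-like cells, and with 1 library per group the spread between cultures is unknown.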
